A study of Homo sapiens with 4 samples.

Results

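Mediator is the large coactivator complex that carries signals from DNA-bound transcription factors to RNA polymerase II, and its subunits were among the genes cut in a pooled knockout screen for survival of HQ461. The sgRNAs described here were taken by gene name, as every sgRNA whose target is a MED gene, CDK19 or CCNC, which gave 124 of the 77441 sgRNAs in the table and 31 of its 19112 gene symbols. Guides against MED20 and CDK8, which belong to the same complex, were not analysed here. The cells were A549, an established line from a human lung adenocarcinoma, transduced with the Brunello library, in which Cas9 is directed to most genes by 4 sgRNAs each. One arm was kept in HQ461 at 4 µM, a small molecule described in the study as a molecular glue between the kinase CDK12 and the ligase adaptor DDB1, and the control arm in the vehicle DMSO at 0.1%, both for 3 weeks after selection of transduced cells. The labels give 2 biological replicates per arm, but the counts come as 1 column per arm, so that no difference below has a replicate check and none was tested. The count of an sgRNA after culture follows the number of cells that carry it.

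Mediator is built from a head and a middle module, which contact RNA polymerase II and the general factors, a tail that receives many activators, and the long subunit MED14, which runs through the core and joins them. A separable kinase module made of cyclin C, CDK8 or CDK19, MED12 or MED12L, and MED13 or MED13L docks on the core and regulates its contact with the polymerase. Vertebrates have paired genes for 3 of the 4 places in that module. Modules were assigned from this general knowledge, with MED27 to MED30, which lie between head and tail, counted in the tail.

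The HQ461 column held 16127620 counts and the DMSO column 14428845. Of these, Mediator sgRNAs took 0.112% in the treated arm (0.110% to 0.113%, exact Clopper-Pearson at 95%) and 0.117% in the control arm (0.115% to 0.118%). Reads were counted after PCR. The study's first-round forward primer holds a run of N bases, but its methods describe no counting by molecular identifier. All intervals here therefore cover counting error only. Columns were scaled by their median ratio, after which an unchanged sgRNA with 100 counts with DMSO would have 69.4 with HQ461. Changes are log2 fold changes, HQ461 over DMSO, with 1 added to each normalized count, and the value of a gene is the median over its sgRNAs. Non-targeting controls, 997 sgRNAs that cut no gene, had 95% of their values between -1.35 and 2.16 on this scale, and that range is the one measure of scatter in the table that involves no gene. With DMSO the median control stood at 525 counts and the median Mediator sgRNA at 99, so their range understates the scatter of sgRNAs with few counts, also where an sgRNA is called below or above the controls in what follows. Scaling by total counts instead would move the median of all targeting sgRNAs from -0.01 to -0.69.

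The sgRNAs against Mediator went both ways with HQ461, more often down than up. Of 123 with a count, 28 (22.8%) were 2-fold or more higher with HQ461, against 19.5% of all targeting sgRNAs, and 37 (30.1%) were 2-fold or more lower, against 17.9%. Above the range of the controls lay 11, where 5.56% of all targeting sgRNAs lay, and below it lay 29, where the share of all was 11.4%. The share of higher sgRNAs was thus near that of the library, and the share of lower ones was above it. Scaled by total counts, 14 were higher and 55 lower, but that scaling moves the median of all targeting sgRNAs to -0.69. The library's shares under it were not computed. Among genes, 5 of 31 were 2-fold or more higher by their median (9.01% of all genes) and 7 were 2-fold or more lower (7.69%). Scaled by total counts these became 2 and 15, again without library shares to set beside them. Scaled by the median ratio, the higher genes were MED21, MED1, MED13, MED19 and MED10. The lower ones, from the lowest, were MED7, MED28, MED11, MED22, MED25, MED4 and MED31. The median over all Mediator sgRNAs was -0.15, against -0.01 for all targeting sgRNAs, and their SD was 1.75 against 1.33.

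Many Mediator sgRNAs had few counts, and sgRNAs of few counts scattered more in the whole library. By the normalized count with DMSO alone, 32.7% of all targeting sgRNAs under 30 were 2-fold or more higher and 29.8% lower, and at 100 or more this was 16.5% and 14.3%. Of the Mediator sgRNAs under 30, 9 of 30 were higher (30.0%) and 11 lower (36.7%). Between 30 and 100, 6 of 38 were higher (15.8%, against 22.1% of all sgRNAs of that class) and 18 lower (47.4%, against 22.3%). At 100 or more, 13 of 55 were higher (23.6%) and 8 lower (14.5%). The share of lower Mediator sgRNAs thus departed most from the library in the class from 30 to 100. By the mean count over both columns instead, a class that an sgRNA partly enters through its own change, 21 of 35 Mediator sgRNAs were lower under 30 (60.0%, against 47.8%), 12 of 33 between 30 and 100 (36.4%, against 32.2%) and 4 of 55 at 100 or more (7.27%, against 7.80%). Where the low Mediator values stand apart from the library therefore depends on how the classes are set.

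In some subunits the sgRNAs parted. In 8 of 31 genes sgRNAs passed 2-fold in both directions (25.8%, against 21.8% of all genes), near the share of the library. The median range within a gene was 2.79 on the log2 scale, against 2.13 over all genes. Mediator sgRNAs also had fewer counts with DMSO (median 99, against 152), and the part of this in the range was not tested. At least 3 sgRNAs were 2-fold or more higher in MED21 and MED1 (6.45% of members, against 5.20% of all genes). At least 3 were 2-fold or more lower in MED4, MED7, MED11, MED25 and MED28 (16.1%, against 3.74%). All sgRNAs of a gene lay above 0 in MED1, MED10, MED13, MED21 and MED24, 5 of 31 genes where the library had 10.3%. All lay below 0 in MED8, MED11, MED25 and MED28, 4 of 31 where the library had 9.19%. No sgRNA passed 2-fold in MED9, MED12 and MED17, 3 of 31 where the library had 18.5%. Of single sgRNAs, 39 had a 95% counting interval of the fold wholly above 1, 49 wholly below 1 and 35 across 1. Of the 65 past 2-fold, 5 had an interval that held 1, all of them on few counts.

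With DMSO alone the modules already differed in level. The median count per sgRNA was 48 for the head, 87.5 for the middle, 112 for the tail and 158.5 for the kinase module, against 152 for all targeting sgRNAs. MED14 stood at 27. Of all targeting sgRNAs 24.7% had under 88 counts, and of the head 15 of 24 sgRNAs were under this level, of the middle 18 of 36, of the tail 14 of 35 and of the kinase module 6 of 24. Head, middle and tail thus had lower medians than the library, and the kinase module one like it. Low counts were not common to all core subunits. Within the tail, MED27 to MED30 had a median of 60 and the other 5 genes 169. In the middle, gene medians ran from 10 (MED21) to 338.5 (MED26). No counts of the plasmid pool or of cells before treatment were used. Where counts were low, loss of knockouts during culture and a low share in the starting pool cannot be told apart.

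With HQ461 the module medians over sgRNAs were -0.82 for the head, 0.33 for the middle, -0.24 for the tail and -0.10 for the kinase module. The widest gap, head minus middle, was -1.15, and it was -0.47 when the genes on chromosome 17 and between the 11q centromere and DDB1, where most sgRNAs of the library were higher with HQ461, were left out. Without those regions the medians were -0.29, 0.18, -0.50 and -0.39 in the same order. The middle median turned to -0.35 when scaled by total counts and to -0.23 relative to neighbouring genes. It was -0.31 without the most enriched sgRNA of each gene, a removal that can only lower the median of a gene. By summed counts the tail and kinase modules stood at 0.44 and 0.75. The SD of single sgRNAs was 1.57 in the head, 1.89 in the middle, 1.63 in the tail and 1.43 in the kinase module. No gene of the 6 in the head or the 9 in the tail was 2-fold or more higher (9.01% of all genes were), and no gene of the 6 in the kinase module was 2-fold or more lower (7.69% were), which in modules of this size is near the share of the library. By summed counts MED16 of the tail was past 2-fold as well, at 1.03. The middle module held 4 of the 5 higher genes and 3 of the 7 lower ones. Of its higher genes, MED1 lies on chromosome 17 and MED19 on 11q before DDB1. Without those regions 2 of its 5 genes were higher (5.80% of the library's were) and 2 lower (8.16% were). Several head and tail values rest on sgRNAs with 0 counts with HQ461, and with these set to 3 counts, the floor for a count of 0, the head median was -0.29 and the tail median -0.05. Counts with DMSO were left as they were, so those of these sgRNAs with 3 or 4 counts with DMSO then stood above 0.

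In the head, all 6 genes had a median below 0, from -2.16 to -0.08, as had 9810 of 19111 genes of the library. Of its 24 sgRNAs 11 were 2-fold or more lower, where 17.9% of all targeting sgRNAs were. Only 1 was 2-fold or more higher, where 19.5% of all were. Many of these values rest on few counts, as 15 of the 24 sgRNAs had under 88 with DMSO. MED22 and MED11, which pair with each other in the head, had the lowest values. The 4 sgRNAs of MED22 (chromosome 9, 133338312 to 133348131) had 167, 170, 37 and 130 counts with DMSO and 24, 11, 30 and 47 with HQ461. The sgRNAs with most counts were below the controls, at -2.23 and -3.33, and the remaining pair, at 0.22 and -0.93, was inside their range, giving a median of -1.58. Those of MED11 had 60, 3, 10 and 22 counts with DMSO and 25, 0, 0 and 2 with HQ461. All 4 were lower, and the median of -2.16 rests on sgRNAs with few counts, becoming -0.87 with counts of 0 set to 3 and -0.72 when sgRNAs under 30 normalized counts with DMSO were left out. The sum over MED11 sgRNAs went from 95 to 27, a log2 ratio of -1.29 after scaling.

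MED6, which sits where the head meets the middle, had one of the widest ranges of all members. Its sgRNAs had 37, 5, 3 and 251 counts with DMSO and 0, 6, 0 and 261 with HQ461. The sgRNA that went from 37 to 0 was 8.56-fold lower with the 0 taken as 3 counts, and its fold interval ended at 0.151. The best represented one was 1.50-fold higher (1.26 to 1.79). The median of -0.61 thus describes neither. It was 0.49 with counts of 0 set to 3, which also put the sgRNA with 3 counts with DMSO above 0. MED18, a subunit of the movable jaw of the head, and MED8, which anchors that jaw, were equally close to the head's median over genes of -0.66. MED18 had a median of -0.62, with 170, 93, 230 and 2 counts with DMSO and 116, 5, 68 and 5 with HQ461. One of these sgRNAs, 93 against 5, had a fold of 0.0775 (0.0246 to 0.187) and the first one stood at 0.983 (0.770 to 1.25). MED8 had 42, 107, 2 and 54 counts with DMSO and 28, 28, 1 and 17 with HQ461, and ran from -1.38 to -0.06 with a median of -0.69. MED17, the central subunit of the head, differed from the rest of the module in its narrow spread, from -0.31 to 0.45 around a median of -0.08.

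The middle module held the highest and the lowest value of all members. MED21 and MED7 form a paired hinge in this module, and their medians lay on opposite sides. MED21 (chromosome 12, 27022546 to 27066343) had 18, 48, 2 and 2 counts with DMSO and 55, 86, 10 and 11 with HQ461. All 4 sgRNAs were 2-fold or more higher, with folds of 4.40 (2.55 to 7.97), 2.58 (1.79 to 3.76), 7.20 (1.54 to 67.6) and 7.93 (1.73 to 73.6). The median of 2.18 ranked 198 of 19111 genes from the highest, and none of the 20 nearest genes of the library on the chromosome, 10 on each side, was higher. The intervals of the last pair are wide because each starts from 2 counts. The median was 1.40 with a pseudocount of 5. It was 1.35 with a minimum of 30 normalized counts with DMSO, where only the sgRNA with 48 counts remained.

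MED7 (chromosome 5, 157137424 to 157159019) had 31, 29, 52 and 78 counts with DMSO and 3, 58, 5 and 4 with HQ461. Here 3 sgRNAs were below the controls, at -2.54, -2.66 and -3.51, and the second was 2.88-fold higher (1.82 to 4.67). The median was -2.60, with all 20 neighbours higher. MED4, which pairs with MED9 in the middle module, had the same pattern, with 49, 10, 37 and 43 counts with DMSO and 15, 42, 9 and 7 with HQ461. Its median was -1.28, and the 1 sgRNA that was higher, by 6.05-fold (2.99 to 13.5), had the fewest counts with DMSO. For both genes the ratio of summed counts gave smaller changes, -0.91 for MED7 and -0.40 for MED4, because the 1 higher sgRNA carried most of the HQ461 counts.

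MED10, near the base of the middle module (chromosome 5, 6371874 to 6378571), had 45, 104, 180 and 167 counts with DMSO and 109, 77, 1044 and 153 with HQ461. A single sgRNA was above the controls, at 3.05, and the median of 1.09 lay just past 2-fold, at 0.40 without that sgRNA. MED19, which forms a hook with MED10 and MED14, had 41, 37, 142 and 92 counts with DMSO and 172, 361, 157 and 26 with HQ461. Those with fewest counts were 6.05-fold (4.28 to 8.72) and 14.1-fold (10.0 to 20.3) higher and the last was at 0.407-fold (0.253 to 0.635), a range of 5.04 on the log2 scale within the gene. Its gene lies on 11q (57703710 to 57712221), on the centromere side of DDB1, where 78.5% of all sgRNAs were 2-fold or more higher. The 20 nearest genes had a median of 1.66, so the 1.61 of MED19 did not stand above its surroundings. MED26, which brings elongation factors to the complex, had the most counts of the module with DMSO and a median of -0.54, with sgRNAs from -1.80 to 0.26.

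MED14, the scaffold, had the widest range of all members. Its sgRNAs had 6, 17, 37 and 146 counts with DMSO and 10, 153, 5 and 25 with HQ461. One was 13.0-fold higher (7.84 to 22.8), another 2.40-fold (0.791 to 8.04), and the remaining pair stood at 0.195 (0.0597 to 0.497) and 0.247 (0.155 to 0.379). The better represented pair were thus lower and the worse represented pair higher, and the median of -0.43 lies between them. The summed counts, 206 with DMSO and 193 with HQ461, were carried with DMSO by the last sgRNA and with HQ461 by the second.

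In the tail, MED25 and MED28 were 2-fold or more lower and no gene was 2-fold or more higher. MED25, a docking site for several activators (chromosome 19, 49818282 to 49840383), was the only member with 4 sgRNAs 2-fold or more lower. They had 31, 85, 40 and 37 counts with DMSO and 6, 27, 9 and 12 with HQ461, and lay between -1.71 and -1.05, the tightest set among the members past 2-fold. None of the 4 intervals of the fold reached 1, the highest upper bound being 0.916, and 2 of the sgRNAs were below the controls. MED28 (chromosome 4, 17614641 to 17634105) had 24, 112, 4 and 63 counts with DMSO and 2, 47, 0 and 0 with HQ461. The sgRNA that went from 63 to 0 was 14.6-fold lower with the 0 taken as 3 counts, and its fold interval ended at 0.0869. The gene median of -2.37 was -1.67 with counts of 0 set to 3.

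The other tail subunits were near or above 0 or mixed. MED16, whose value of 0.15 was the tail's median over genes, had 90, 301, 432 and 312 counts with DMSO and 30, 122, 634 and 827 with HQ461. These counts are high enough that the intervals of its sgRNAs do not overlap between the pair that was lower, at 0.480 (0.307 to 0.733) and 0.584 (0.469 to 0.723), and the pair that was higher, at 2.11 (1.87 to 2.40) and 3.82 (3.35 to 4.36). MED15, which receives lipid-metabolism activators of the SREBP family, was mixed too, from -1.59 to 1.31 with a median of -0.79. MED23, a partner of ELK1, had a median of 0.47 (-0.05 to 1.50) and MED24 one of 0.48 (0.13 to 1.19). Of the subunits between head and tail other than MED28, MED29 had a median of 0.37 (-0.50 to 1.11), MED27 one of -0.23 (-4.53 to 0.40) and MED30, with 3 sgRNAs and 39 counts in all with DMSO, one of 0.61 (-1.80 to 0.87).

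In the kinase module 1 gene of 6 was past 2-fold, and its sgRNAs had counts with DMSO like those of the library. CCNC encodes cyclin C, the partner of both Mediator kinases. Its sgRNAs had 79, 62, 99 and 99 counts with DMSO and 30, 45, 51 and 4 with HQ461, and the last, at 0.0582-fold (0.0156 to 0.154), was the only one below the controls. The median was -0.64. CDK19, 1 of the kinases, had 354, 552, 338 and 217 counts with DMSO and 732, 733, 140 and 114 with HQ461. A pair of its sgRNAs was higher, at 2.98-fold (2.62 to 3.39) and 1.91-fold (1.71 to 2.14), and the other pair lower, at 0.597 (0.487 to 0.729) and 0.757 (0.598 to 0.954), so no direction can be given for the gene, whose median was 0.27.

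MED12, which activates the kinase, and its paralogue MED12L had medians of -0.41 and -0.22. The MED12 sgRNAs had 164, 224, 1 and 32 counts with DMSO and 71, 305, 0 and 20 with HQ461, and none passed 2-fold. With the 0 set to 3 counts the MED12 median was 0.41, but that sgRNA had 1 count with DMSO, so the setting itself made it higher. Those of MED12L had 63, 168, 165 and 154 with DMSO and 42, 270, 88 and 73 with HQ461, where 1 was 2.32-fold higher (1.90 to 2.82). MED13, which ties the kinase module to the core, had 163, 129, 122 and 35 counts with DMSO and 131, 722, 619 and 32 with HQ461. The second and the third of these were 8.07-fold (6.68 to 9.80) and 7.31-fold (6.01 to 8.95) higher and the others near 1, at 1.16 (0.913 to 1.47) and 1.32 (0.790 to 2.19). The paralogue MED13L had 290, 403, 404 and 150 counts with DMSO and 555, 294, 83 and 55 with HQ461, a median of -0.42 with sgRNAs from -1.75 to 1.46. The medians of MED13 and MED13L were 1.62 and -0.42, but MED13 lies on chromosome 17 and MED13L on chromosome 12.

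Chromosome 17 carries 6 of the 31 genes, some above and some below the genes around them. On that chromosome 50.2% of all sgRNAs were 2-fold or more higher with HQ461 and 5.07% lower. Of the 24 Mediator sgRNAs there 6 were higher, from MED1 (3), MED13 (2) and MED24 (1). The 5 lower ones came from MED11 (3) and MED31 (2) alone. By gene, 49.0% were 2-fold or more higher and 1.94% lower, and of the 6 Mediator genes 2 were higher and 2 lower. Outside chromosome 17 and the 11q region, 20 of 95 Mediator sgRNAs were higher (21.1%, against 17.1%) and 31 lower (32.6%, against 18.9%). By gene this was 2 of 24 higher, MED21 and MED10, where the library had 5.80%, and 5 of 24 lower, where it had 8.16%. The other genes of chromosome 17 had a median of 0.97. Among the Mediator genes there, MED1 and MED13 were above the median of the 20 genes nearest to them and the other 4 below it. MED1, the subunit that binds nuclear receptors (39404285 to 39451272), had 261, 192, 173 and 218 counts with DMSO and 1162, 786, 126 and 424 with HQ461, and 3 of its sgRNAs were 2-fold or more higher. Its median of 2.02 compares with 1.57 for its neighbours, 3 of which were higher than MED1. CDK12, which begins 10.2 kb from MED1, had a median of 1.87. MED13 (61942605 to 62065278), at 1.62, compares with 0.98 for its neighbours, 2 of which were higher.

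The other chromosome 17 members lay under their surroundings. MED9, whose value was the middle module's median over genes (17476994 to 17493221), had 265, 486, 180 and 186 counts with DMSO and 194, 468, 204 and 104 with HQ461, and its median of 0.27 compares with 0.81 for its neighbours. MED24 (40019097 to 40061215), at 0.48, compares with 1.44, and 17 of its 20 neighbours were higher. MED31, a small middle subunit (6643311 to 6651634), had 83, 33, 19 and 469 counts with DMSO and 110, 2, 3 and 243 with HQ461. The second and the third of these were below the controls, at -3.07 and -1.87, and the others, with more counts, at 0.92 and -0.42. Its median of -1.15 compares with 0.69 for its neighbours, all 20 of which were higher, but it turned to 0.25 when sgRNAs under 30 normalized counts with DMSO were left out. All 20 neighbours of MED11 (4731428 to 4733608) were higher too, its -2.16 comparing with a neighbour median of 1.10 and with 10.49 for UBE2G1, 365 kb away. Both low medians thus stood inside a chromosome of high values and rested on sgRNAs of few counts. The part of the chromosome as a whole in the values of MED1 and MED13 was not tested.

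Other factors that act with Mediator at promoters were set beside it. The preinitiation list held 31 genes (TBP, TFIIA to TFIIF, TFIIH and the TAF subunits of TFIID). Of these, 1 was 2-fold or more higher (9.01% of all genes were) and 8 were 2-fold or more lower (7.69% were). Their gene median was -0.53, against -0.41 for Mediator genes and -0.02 for all genes. By class the median was -0.72 for TBP and TFIIA to TFIIF, -0.53 for TFIIH and -0.17 for the TAFs, the last above that of Mediator. TAF7 was the highest at 1.79, with 3867 of its 4637 counts with HQ461 on 1 sgRNA, and TAF1, the largest TFIID subunit, the lowest at -2.70. Of the sgRNAs of the preinitiation genes 18.2% were 2-fold or more higher (19.5% of all targeting sgRNAs) and 38.8% lower (17.9%). Among 12 RNA polymerase II subunits, 0 were 2-fold or more higher and 5 were lower, with a median of -0.80 and sgRNAs that had a median of 18 counts with DMSO. POLR2D was the highest of these at 0.47 and POLR2B, the second largest subunit, the lowest at -2.50.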

How the data were processed

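Pooled sgRNA abundance was measured in genomic DNA of A549 cells. The authors counted reads per sgRNA with MAGeCK 0.5.9.2 and deposited the counts, not normalized, with 1 column per condition. The sources used here do not say how the 2 replicates became 1 column. A read count follows cells only after PCR, and a few very abundant sgRNAs take reads from the others.

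Counts were analysed in Python 3.11.15 (numpy 2.4.6, scipy 1.17.1, pandas 2.3.3). Columns were divided by median-ratio size factors (HQ461 0.833, DMSO 1.20). The 273 sgRNAs at 0 in both columns were left out, 1 of them against MED30, which left 76171 targeting sgRNAs and 19111 genes. Log2 fold changes took a pseudocount of 1, and a gene was its median sgRNA. A fold past 2 was called, with no p, since 1 column per condition allows no test between cultures. Fold intervals are exact 95% intervals on the 2 counts without the pseudocount. Where stated, a count of 0 with HQ461 was set to 3 counts, with the DMSO counts left as they were. The scripts were tested on simulated data. Gene positions came from GENCODE 44 on GRCh38, the build that the submitters' processing notes name, with 17761 genes placed by symbol, 952 by an older symbol and 398 not placed. Neighbours are the 10 nearest placed genes on each side.

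Every member is accounted for. Counts per sgRNA are given for genes past 2-fold, the kinase module, MED14, the gene or genes nearest each other module's median over genes and the 3 widest ranges. The members, modules and lists were chosen with earlier results of these data known. Alternatives were other scalings (total counts, TMM from edgeR 4.0.16, non-targeting controls), a pseudocount of 5, a minimum of 30 normalized counts with DMSO, no filter, removal of the top sgRNA, summed counts, removal of raised regions and other module assignments. Sequences and cut positions of the sgRNAs were not analysed here, nor were MED20 and CDK8.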

Additional observations from a re-analysis of the deposited data

How the results depend on the processing

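No paired analysis was possible because both replicates of an arm share 1 column, so a replicate block and leaving out a replicate were not run. Scaling by total counts gave 14 higher sgRNAs, 2 higher (MED1 and MED21) and 15 lower genes. The medians were -1.50 (head), -0.35 (middle), -0.93 (tail) and -0.77 (kinase). No library shares were computed under this scaling. Removal of each gene's most enriched sgRNA can only lower a gene's median, and it was made for the members alone, so no library shares stand beside it. It gave 11 higher sgRNAs, 2 higher (MED1 and MED21) and 12 lower genes, and medians of -1.30, -0.31, -0.52 and -0.41. Without chromosome 17 and 11q to DDB1 2 genes were higher (MED21 and MED10), and the medians were -0.29, 0.18, -0.50 and -0.39. Ratios of summed counts gave 4 lower genes and values of -0.56, 0.94, 0.44 and 0.75. A pseudocount of 5 moved the head to -0.58, and a minimum of 30 counts with DMSO moved the middle to 0.18 and the tail to -0.051. By gene, the pseudocount of 5 took MED31 from the lower genes. The minimum gave 9 lower genes, without MED11 and MED31 and with MED6, MED8, MED14 and MED18 added. Library shares were not computed under either setting. Without a filter the tail was -0.15. With MED27 to MED30 in the head, the head was -0.54 and the tail 0.039. Subtraction of the median of 20 neighbouring genes, added after the data had been examined, left 1 higher gene (MED21) and moved the middle to -0.23, the tail to -0.44 and the kinase module to -0.17. Of the 12 genes past 2-fold, those that changed sign were MED19, to -0.043 after that subtraction, and MED31, to 0.25 with the minimum of 30 counts, and of the 19 under 2-fold 15 changed sign under at least 1 alternative. MED21, MED22, MED25 and MED28 stayed past 2-fold in the same direction under all 10 alternatives that apply to genes. Not all of these could have changed the call. Leaving out the filter or the raised regions does not touch these genes. Total counts and removal of the top sgRNA can only lower MED22, MED25 and MED28. The order of the modules thus depends on the setting, and the cause was not tested. TMM and control scaling changed no gene call. Low counts with DMSO are limiting for the head and for MED14, and also for genes of other modules such as MED21 and MED30.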
